A study of Homo sapiens with 6 samples.

Results

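The genes described here are 36 genes of the endoplasmic reticulum (ER) and of its unfolded protein response (UPR), taken by gene symbol from the 23152 genes in the count table. They are 11 chaperones and co-chaperones, 4 disulfide isomerases, 9 genes of ER-associated degradation (ERAD), 4 stress sensors and transcription factors, 7 genes of the translocon, signal peptidase and glycosylation machinery, and 1 gene of the COPII transport coat. RNA was sequenced from T24 cells, an established human bladder cancer line. There were 3 samples labelled vector and 3 labelled oeRNF112, in which the E3 ubiquitin ligase RNF112 was overexpressed. All 6 samples carry the same cell line label, the way in which RNF112 was delivered to the sequenced cells is not given in the sources used here (the study describes both plasmids and lentivirus), and the deposited treatment protocol mentions only siRNA although the sample labels name vector and oeRNF112. The labels do not say whether the replicates were separate cultures, so that p-values measure only the spread between these samples.

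The ER folds secreted and membrane proteins. Its chaperones bind unfolded chains, its disulfide isomerases form and rearrange disulfide bonds, and ERAD returns chains that fail to fold to the cytosol for destruction by the proteasome. When unfolded chains accumulate, 3 sensors in the ER membrane respond. IRE1 (gene ERN1) splices the XBP1 mRNA, ATF6 is cut to release a transcription factor, and PERK (gene EIF2AK3) slows translation and favours that of ATF4. XBP1 and ATF6 raise chaperone and ERAD genes through promoter elements called ER stress elements (ERSE), while the PERK arm raises DDIT3 and PPP1R15A. Epithelial cancer cells, which make many membrane and secreted proteins, use the same machinery, and UPR activity is usually read from the joint rise of HSPA5 and its companions.

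Total counts were between 40029547 and 41259569 per sample. A count of 0 allows up to 3 reads, or 0.0727 to 0.0749 CPM (counts scaled to a common library total), which covers counting error only. RNF112 had 27, 19 and 24 counts in vector and 29753, 36963 and 31712 counts in oeRNF112. Of the epithelial markers, KRT7, KRT8, KRT18 and KRT19 had at least 5405 counts in every sample, EPCAM had 66 to 183 counts and CDH1 at most 1. The summed level of these 6 markers was 3485 to 4351 CPM in vector and 2841 to 3296 CPM in oeRNF112. The 4 leukocyte markers summed to at most 3.83 CPM, the 2 endothelial markers to at most 0.445 CPM and the 3 fibroblast markers to at most 12.7 CPM. The part of these marker levels in the results was not tested. In bulk RNA, fewer cells with a transcript and less of it per cell cannot be told apart.

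Promoter windows were searched for the known elements of the UPR. RefSeq promoter windows (GRCh38.p14) running from 250 bases before the gene's start to 50 after it, were matched by symbol for 32 of the 36 genes. PDIA3, DERL1, DERL3 and SEC24D had none. The ERSE was searched on both strands as CCAAT, 9 bases of any kind and CCACG. It was found in 7 of the 32 genes (21.9%), and in 25 of all 27305 genes with a window (0.0916%). The shorter ERSE-II (ATTGG, 1 base of any kind and CCACG) was in 3 others (9.38%, against 0.0696% of all genes). The UPR element core TGACGTGG was in HYOU1 and SSR3 (6.25%, against 0.927%). In HYOU1 this core overlaps an ERSE-II by 5 letters. The 36 genes were picked as ER and UPR genes, so a higher share of these elements among them is no independent finding. A match is a run of letters and not evidence that a factor binds there. Only exact matches were searched, so looser forms of an element are not marked or counted. The 250 bases before the start of HSPA5 are shown because this gene encodes BiP, the master ER chaperone and the standard reporter of ER stress. They lie on the minus strand at chr9:125241344-125241593 and read, 5′ to 3′ with the exact match to the ERSE in capitals:

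HSPA5: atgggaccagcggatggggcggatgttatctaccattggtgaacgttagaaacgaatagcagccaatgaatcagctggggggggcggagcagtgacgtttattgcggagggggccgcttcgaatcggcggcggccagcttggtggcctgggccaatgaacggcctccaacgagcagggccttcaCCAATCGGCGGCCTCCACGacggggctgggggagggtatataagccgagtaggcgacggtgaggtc

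The elements of 7 other genes are given on the strand of the gene, with 5 bases on each side, so that the shared ends and the free spacer can be compared. HYOU1 also has a reversed ERSE-II that begins 79 bases before the start (chr11:119057269-119057289) and is not printed. Capitals mark the match, and distances run from its first base. An element that runs in the other direction begins with CGTGG and ends with ATTGG (ERSE) or CCAAT (ERSE-II).

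XBP1 (ERSE, chr22:28800598-28800626, minus strand, 52 bases before the start): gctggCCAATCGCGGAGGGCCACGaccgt
HSP90B1 (ERSE, chr12:103930211-103930239, plus strand, 194 bases before the start): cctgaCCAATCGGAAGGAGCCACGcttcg
HSP90B1 (ERSE reversed, chr12:103930316-103930344, plus strand, 89 bases before the start): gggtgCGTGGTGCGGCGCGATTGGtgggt
CANX (ERSE, chr5:179698773-179698801, plus strand, 151 bases before the start): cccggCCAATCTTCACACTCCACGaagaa
PDIA6 (ERSE, chr2:10812848-10812876, minus strand, 86 bases before the start): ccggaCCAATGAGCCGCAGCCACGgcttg
CRELD2 (ERSE reversed, chr22:49918549-49918577, plus strand, 80 bases before the start): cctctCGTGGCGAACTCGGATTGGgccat
HERPUD1 (ERSE-II, chr16:56932020-56932040, plus strand, 117 bases before the start): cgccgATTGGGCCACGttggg
HYOU1 (ERSE-II reversed, chr11:119057375-119057395, minus strand, 185 bases before the start): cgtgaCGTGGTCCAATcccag

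Of the 36 genes, 35 passed edgeR's filter on low counts. DERL3 did not, with 5 to 14 counts in every sample. At an adjusted p under 0.05 (edgeR's quasi-likelihood test, Benjamini-Hochberg over all 14467 genes tested), 3 of the 35 rose in oeRNF112, ERN1, DNAJB9 and SSR3, and 1 fell, SSR2. Over all genes tested, 9.97% rose and 8.14% fell. The remaining 31 genes were not called. The log2 fold changes of all 35 genes, called or not, had a median of -0.05 and quartiles of -0.10 and 0.08. Over all 14467 genes tested the median was 0.00267 and the quartiles were -0.20 and 0.24. Every sample of oeRNF112 lay above every vector sample for 4 genes (HSPA5, DNAJB9, ERN1 and SSR3) and below it for 5 (PDIA4, HERPUD1, DERL1, DERL2 and SSR2). Over all genes the same was true of 18.9% and 17.9%. Scaled by library totals instead of TMM factors, HSPA5 joined the genes that rose (0.29, adjusted p = 0.0285 from edgeR), 4 in all, and SSR2 lost its call. That scaling moved the median of all genes to 0.10, and over all genes it called 2020 as higher and 659 as lower.

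**Figure D1:**
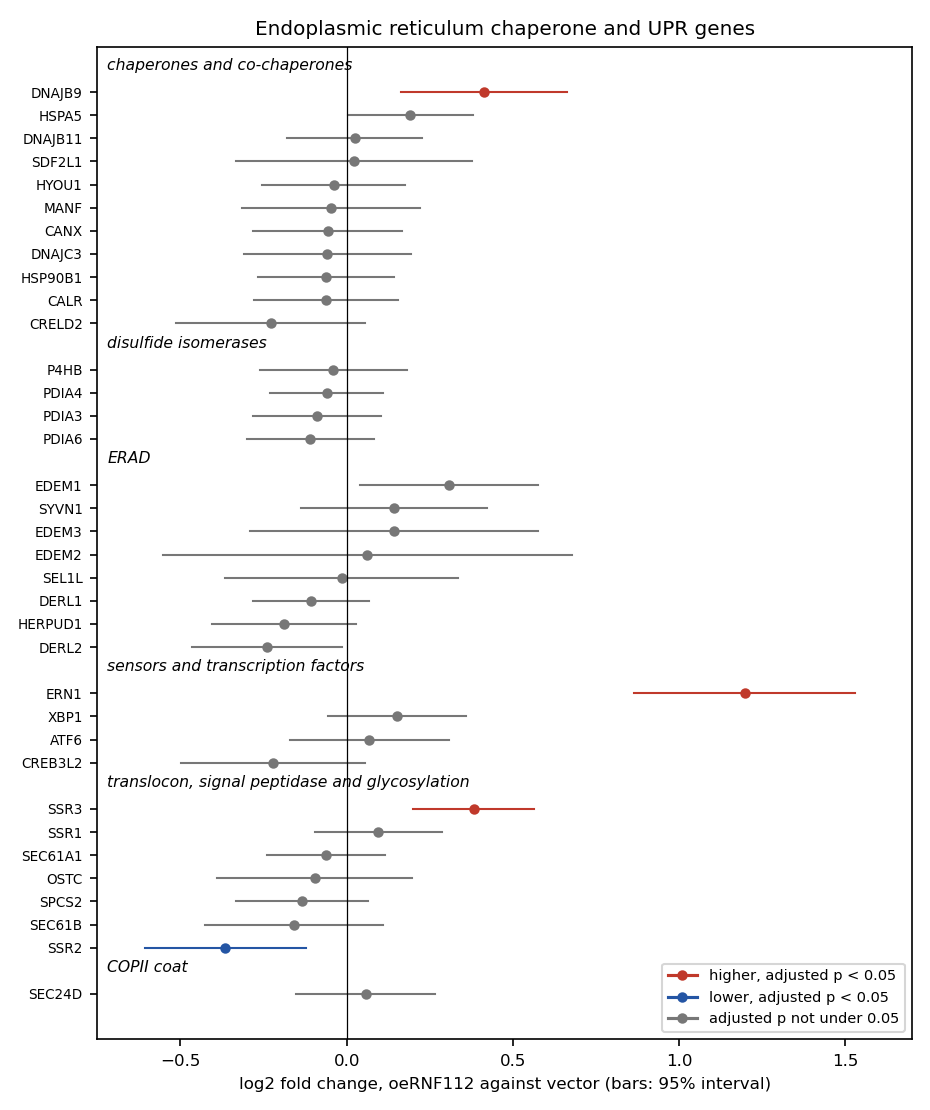
Log2 fold change of the 35 genes tested (oeRNF112 against vector, x axis), grouped by role, with 95% intervals as bars, red for genes that rose, blue for the gene that fell and grey for the rest. ERN1 stands at 1.20, while the grey points lie between -0.24 and 0.31.

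Of the sensor genes, ERN1 rose and ATF6 was not called. ERN1, which encodes the kinase and endoribonuclease IRE1 (chr17:64039142-64130144, GRCh38.p14), had 368, 425 and 305 counts in vector and 863, 749 and 1050 counts in oeRNF112. The lowest oeRNF112 sample thus had more counts than the highest vector sample. The log2 fold change reached 1.20 ± 0.149 (SE, edgeR adjusted p = 0.000918), or 2.29 times the vector level, with a 95% interval of 0.86 to 1.53. ATF6, the sensor that becomes a transcription factor after cleavage in the Golgi, had 3131, 3406 and 2557 counts in vector and 3206, 3211 and 3651 counts in oeRNF112. These groups overlapped, and the log2 fold change of ATF6 was 0.07 (95% interval -0.17 to 0.31). The third sensor gene, EIF2AK3, belongs to the wider list below and had a log2 fold change of 0.06 (95% interval -0.17 to 0.30).

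Ratios of counts within a sample do not depend on the scaling between libraries. They may still carry a trend with gene length, described below. ERN1 is longer, at 10.9 kb, than ATF6 at 7.89 kb and EIF2AK3 at 4.92 kb. The ratio of ERN1 to ATF6 counts was 0.118, 0.125 and 0.119 in vector and 0.269, 0.233 and 0.288 in oeRNF112. That of ERN1 to EIF2AK3 was 0.513, 0.518 and 0.468 in vector and 1.07, 0.984 and 1.24 in oeRNF112. Neither ratio overlapped between the groups, with an exact two-sided permutation p of 0.1 for each, the smallest that 3 against 3 samples can give. ERN1 was called while ATF6 and EIF2AK3 were not, so these ratios restate those results and are no separate support for them. ERN1 mRNA was scarce per unit length in both groups, at an RPKM of 0.825 ± 0.135 in vector and 2.02 ± 0.347 in oeRNF112 (SD, n = 3). The RPKM of ATF6 was 9.44 ± 1.32 in vector and 10.6 ± 0.791 in oeRNF112.

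XBP1, the transcription factor made from the mRNA that IRE1 splices, had 4440, 3910 and 4338 counts in vector and 4995, 5191 and 4702 counts in oeRNF112. The raw counts did not overlap, but after TMM normalization the groups did. Its log2 fold change was 0.15 (95% interval -0.06 to 0.36, adjusted p = 0.289 from edgeR's test). Counts per gene do not separate the spliced from the unspliced XBP1 mRNA, so that IRE1 activity itself was not measured. CREB3L2, a membrane-bound factor of the same family as ATF6 that serves secretory load, had a log2 fold change of -0.22 (95% interval -0.50 to 0.06).

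**Figure D2:**
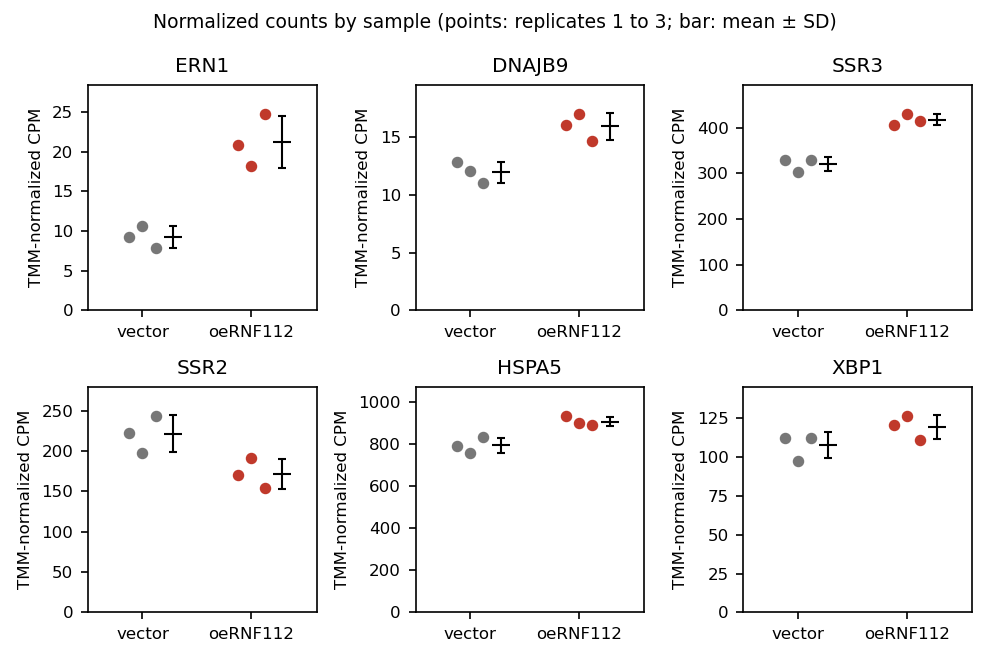
TMM-normalized CPM (y axis, from 0) of ERN1, DNAJB9, SSR3, SSR2, HSPA5 and XBP1 in each sample, with grey points for vector, red points for oeRNF112 and the mean ± SD beside them. The groups separate for the first 5 genes and overlap for XBP1, and ERN1 has the widest gap.

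Among the 11 chaperones and co-chaperones, 1 rose and none fell. DNAJB9 (chr7:108569874-108574850), which encodes ERdj4, a BiP co-chaperone that also restrains IRE1, had 508, 483 and 425 counts in vector. It had 667, 700 and 623 counts in oeRNF112, all above the vector samples. The log2 fold change was 0.41 ± 0.112 (SE, edgeR adjusted p = 0.0309), or 1.33 times vector. DNAJB9 shares 282 bases of exon with genes on the other strand, and the strand setting of the counting is not given in the sources used here. The call was lost when any 1 of 4 samples was left out, with adjusted p-values from edgeR of 0.0676 without vector replicate 1, 0.0776 without vector replicate 3, 0.104 without oeRNF112 replicate 1 and 0.0735 without oeRNF112 replicate 2.

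HSPA5 (chr9:125234853-125241343) had 31378, 30310 and 32113 counts in vector and 38671, 36969 and 37659 counts in oeRNF112. The groups did not overlap, and the difference was small. Its log2 fold change was 0.19, or 1.14 times vector, with a 95% interval of 0.00350 to 0.38, and over all genes it was not called (adjusted p = 0.145 from edgeR's test). HSP90B1, the ER form of HSP90 also known as GRP94, had 38998, 36542 and 40287 counts in vector and 41337, 37336 and 38777 counts in oeRNF112. Its groups overlapped, at a log2 fold change of -0.06 (95% interval -0.27 to 0.14). The ratio of HSPA5 to HSP90B1 counts was 0.805, 0.830 and 0.797 in vector and 0.936, 0.990 and 0.971 in oeRNF112, so it was higher in every oeRNF112 sample (exact two-sided permutation p = 0.1).

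The lectin chaperones that hold glycoproteins during folding, CALR in the lumen and CANX in the membrane, had log2 fold changes of -0.06 each. The co-chaperones DNAJB11 and DNAJC3 stood at 0.02 and -0.06. SDF2L1, a partner of the ER DNAJ proteins, stood at 0.02. HYOU1, the nucleotide exchange factor that resets BiP, stood at -0.04. MANF, a secreted stress protein that binds BiP, had a value of -0.05, and CRELD2, a secreted UPR target, of -0.23 (95% interval -0.51 to 0.06). None of these 8 genes was called, and each of their intervals lay within a 1.5-fold change in either direction.

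None of the 4 disulfide isomerases was called by edgeR or DESeq2, and none had an unadjusted p under 0.05. P4HB, the founding member known as PDI, had a log2 fold change of -0.04, PDIA4 of -0.06, PDIA3, which works with calnexin and calreticulin, of -0.09, and PDIA6 of -0.11. The 95% intervals of these 4 genes together spanned -0.30 to 0.18. P4HB is among the most abundant of the 36 mRNAs per unit length, with an RPKM of 319 ± 20.2 in vector and 331 ± 21 in oeRNF112 (SD, n = 3), behind CALR at 374 ± 29.7 and 383 ± 14.5 and HSP90B1 at 341 ± 17.4 and 349 ± 20.4. RPKM values are scaled by library totals and so lie slightly higher in oeRNF112 than the TMM-normalized values do.

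No ERAD gene was called among the 8 tested by edgeR or DESeq2, and 2 of them (EDEM1 and DERL2) had an unadjusted p under 0.05. EDEM1, a mannosidase-like protein that marks misfolded glycoproteins for removal, had the highest value at 0.31 (95% interval 0.04 to 0.57, adjusted p = 0.104 from edgeR's test). Its relatives EDEM2 and EDEM3 were at 0.06 and 0.14, and EDEM2 had 29 to 42 counts and an interval of -0.55 to 0.68. These counts are low for a broadly expressed gene, and how reads shared between annotated genes were counted is not given in the sources used here, so that the level of EDEM2 is uncertain. EDEM2 was the only one of the 31 genes not called whose interval reached beyond a 1.5-fold change. SYVN1, the ERAD ubiquitin ligase HRD1, was at 0.14 and its partner SEL1L at -0.02. HERPUD1, a scaffold of the same complex and a sensitive UPR target, was at -0.19. The retrotranslocation proteins DERL1 and DERL2 were at -0.11 and -0.24. For HERPUD1, DERL1 and DERL2 every oeRNF112 sample lay below every vector sample after normalization, without a call. The call of EDEM1 was gained without vector replicate 2, at 0.40 (edgeR adjusted p = 0.0279).

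In the translocon group, 1 subunit gene of a complex rose and another fell. SSR1, SSR2 and SSR3 encode the alpha, beta and gamma subunits of the translocon-associated protein complex (TRAP), which sits beside the SEC61 channel and helps certain proteins to enter the ER. SSR3 (chr3:156539553-156555117) had 13039, 12105 and 12701 counts in vector and 16840, 17701 and 17609 counts in oeRNF112. It was higher in all 3 oeRNF112 samples, at a log2 fold change of 0.38 ± 0.0818 (SE, edgeR adjusted p = 0.0118). SSR2 (chr1:156009048-156020951) had 8810, 7895 and 9377 counts in vector and 7051, 7859 and 6512 counts in oeRNF112. It was lower in all 3, though oeRNF112 replicate 2 lay close to vector replicate 2.

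SSR2 thus had a log2 fold change of -0.36 ± 0.109 (SE, edgeR adjusted p = 0.0446). It lost its call without vector replicate 1, vector replicate 3, oeRNF112 replicate 1 or oeRNF112 replicate 3 (edgeR, adjusted p = 0.149, 0.118, 0.141 and 0.151), and with library totals (adjusted p = 0.0886). SSR1 was at 0.10 (95% interval -0.09 to 0.29). SSR4 of the same complex, from the wider list below, was at -0.33 (95% interval -0.65 to -0.0076). It was not called (adjusted p = 0.143 from edgeR's test), and its groups overlapped. The SSR3 to SSR2 count ratio was 1.48, 1.53 and 1.35 in vector and 2.39, 2.25 and 2.70 in oeRNF112. On the log2 scale it was higher by 0.75 in oeRNF112, without overlap (exact two-sided permutation p = 0.1, the smallest possible here). Both genes were called, in opposite directions, so this ratio restates those calls and is no separate support for them. SSR3 and SSR2 also differ in length (4.52 kb and 1.11 kb), and the part of length in the ratio was not tested. SEC61A1 and SEC61B, the pore and a small subunit of the channel, were at -0.06 and -0.16. SPCS2 of the signal peptidase was at -0.13, OSTC of the oligosaccharyltransferase at -0.10, and SEC24D, a cargo adaptor of the COPII coat, at 0.06. OSTC and SPCS2 have 6 and 4 pseudogenes of like name, and SSR2 shares 214 bases of exon with a gene on the other strand, so their counts are less certain. The same holds for other members in other roles. PDIA3 shares 1410 bases with genes on the other strand, PDIA6 1033 and DNAJB11 877. On their own strands SYVN1 shares 461 bases and DNAJB11 451. SSR1 and PDIA3 have 2 pseudogenes of like name each.

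None of the 10 genes with an ERSE or ERSE-II in the window was called by edgeR or DESeq2, and 1 of them (HSPA5) had an unadjusted p under 0.05. They were CALR, CANX, CRELD2, HERPUD1, HSP90B1, HSPA5, HYOU1, PDIA6, SDF2L1 and XBP1, with log2 fold changes between -0.23 and 0.19 and a median of -0.06. The 95% intervals of these 10 genes together spanned -0.51 to 0.38. Of the 22 tested genes whose windows held no exact match to either element, 3 rose and 1 fell, with a median of -0.03. Over all genes tested 9.97% rose and 8.14% fell, and with so few genes in each set these counts do not set the genes with an element apart. The UPR element core of SSR3 lay before an internal start within the gene and not before its first start. How the elements bear on the values was not tested.

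Gene length moved with the values in some libraries. The length that the deposited RPKM values imply had a Spearman correlation of 0.858 with the deviation from the vector mean across the 35 genes in vector replicate 2, of -0.722 in vector replicate 3 and of 0.628 in oeRNF112 replicate 3. In the other 3 samples it was -0.138, 0.206 and -0.219. These points share their library and the vector mean. The same correlations over all 14467 genes were 0.534, -0.491 and 0.346. In vector replicate 2 the 17 genes longer than 3.26 kb had a median deviation of 0.10 on the log2 scale and the other 18 of -0.12. In vector replicate 3 these medians were -0.10 and 0.10, and in oeRNF112 replicate 3 they were 0.16 and -0.16. ERN1 is the longest of the 35 at 10.9 kb, and SSR2 is short at 1.11 kb.

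**Figure D3:**
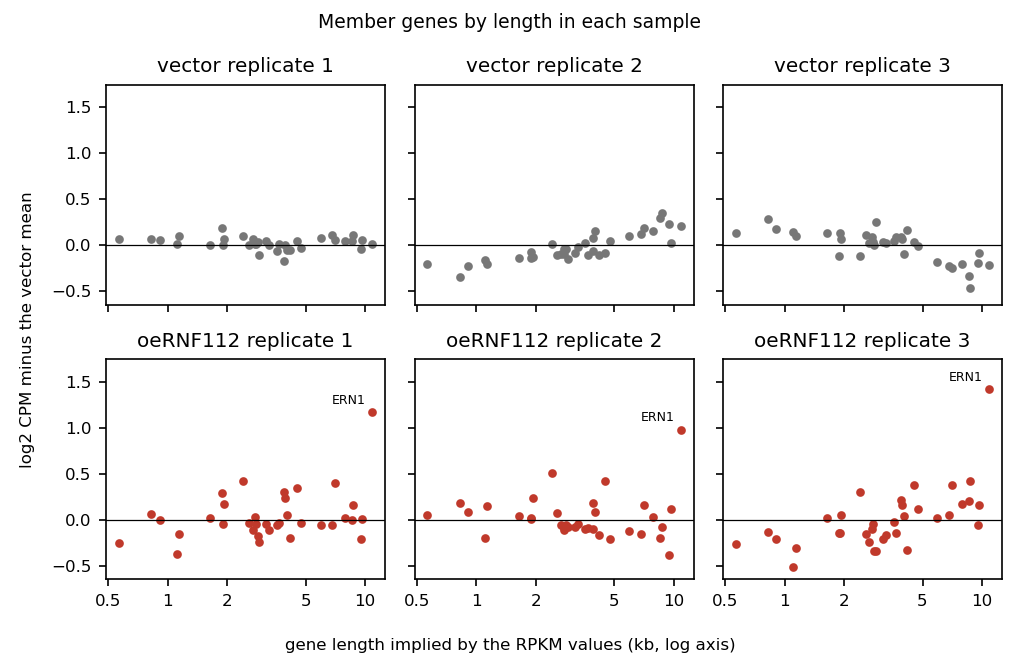
Deviation of each of the 35 genes from its vector mean (log2 CPM, y axis) against gene length (kb, log x axis) in each of the 6 samples. The points slope upward in vector replicate 2 and oeRNF112 replicate 3 and downward in vector replicate 3, and ERN1 lies far above the other genes in all 3 oeRNF112 samples.

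When a smooth trend with length was removed from each library, a step chosen after seeing the data, ERN1, DNAJB9, SSR3 and SSR2 kept their calls, with log2 fold changes of 1.11, 0.44, 0.36 and -0.26. Another 4 genes were then called by edgeR, HSPA5 (0.19, adjusted p = 0.0433), XBP1 (0.22, adjusted p = 0.0231) and EDEM1 (0.25, adjusted p = 0.0371) as higher and CREB3L2 (-0.30, adjusted p = 0.00621) as lower. Over all genes this fit called 2059 as higher and 2046 as lower, against 1442 and 1178. HSPA5 and XBP1 carry an ERSE, so that 2 of the 10 genes with an element were called there. The sizes of their changes stayed at or below 0.22.

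A wider list of 116 other ER and UPR genes places these values. The list was chosen with earlier results of these data known, so its counts describe the listed genes and are no independent test. Of its 112 genes tested, 12 rose and 5 fell (edgeR, adjusted p under 0.05), against the 9.97% and 8.14% of all genes, and the median log2 fold change was -0.00885. With library totals 20 rose and 3 fell. Over all genes that scaling called 2020 as higher and 659 as lower, against 1442 and 1178 with TMM factors. In the PERK arm, 5 of the 10 genes rose, none fell and all 10 had a value above 0. The median of these 10 was 0.51.

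DDIT3, the factor CHOP that is induced through ATF4, had 1081, 933 and 1216 counts in vector and 2760, 3416 and 2673 counts in oeRNF112. The log2 fold change was 1.37 ± 0.139 (SE, edgeR adjusted p = 0.000344). PPP1R15A, or GADD34, which reverses the translation block set by PERK, had 3197, 2899 and 3446 counts in vector and 6406, 7367 and 6969 counts in oeRNF112, a log2 fold change of 1.04. The groups did not overlap for either gene. The stress factor ATF3 rose by 0.84, the glutathione-degrading enzyme CHAC1 by 0.72 and the transcription factor CEBPB by 0.60 on the same scale. ATF4 itself had a value of 0.19 (95% interval -0.04 to 0.43). Several of these genes also answer to stress signals outside the ER, and translation of ATF4 was not measured.

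**Figure D4:**
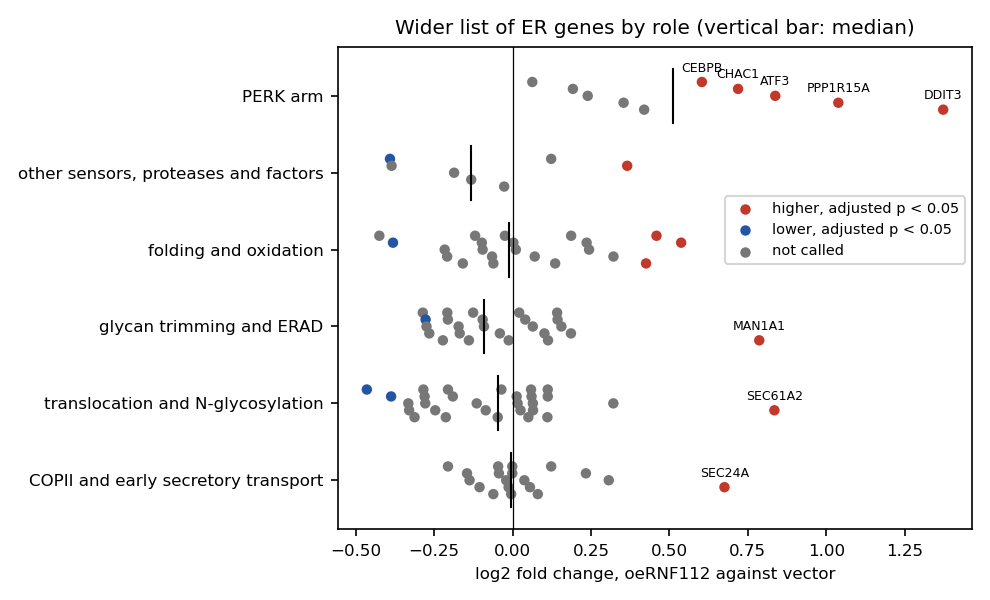
Log2 fold change (x axis) of each of the 112 tested genes of the wider list, by role, with red and blue for genes called higher or lower and a vertical bar at the median of each role. The PERK arm has its median at 0.51 and all its points above 0, while the medians of the other 5 roles lie between -0.13 and -0.00490. The list was chosen with earlier results of these data known.

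In the other roles few genes were called. ERO1A and ERO1B, the oxidases that recharge the disulfide isomerases, rose by 0.46 and 0.54 on the log2 scale, and CLGN, a lectin chaperone related to calnexin, by 0.43. MAN1A1, a mannosidase that trims glycans, rose by 0.79. SEC61A2, the less abundant form of the SEC61 pore, rose by 0.83, while its main form SEC61A1 was not called. SEC24A, another cargo adaptor of the COPII coat, rose by 0.68. Genes that fell included ATF6B, a relative of ATF6 (-0.39), MLEC, a lectin that recognizes glucosylated glycans (-0.38), and DDOST and OST4 of the oligosaccharyltransferase (-0.39 and -0.47). The 2 further calls were 1 rise and 1 fall with larger p-values. ATF6B, MLEC, DDOST and OST4 each lost their call without vector replicate 1 (edgeR adjusted p from 0.0600 to 0.116) and without oeRNF112 replicate 1 (0.0582 to 0.0947). ATF6B, DDOST and OST4 also lost theirs without oeRNF112 replicate 3 (0.0550, 0.0697 and 0.0897), MLEC without oeRNF112 replicate 2 (0.0670) and OST4 without vector replicate 3 (0.0699). Over the 15 alternatives ATF6B kept its call in 11, DDOST in 9, and MLEC and OST4 in 8 each. Of the rises, ERO1B was not called without vector replicate 1 (0.0577) or oeRNF112 replicate 1 (0.0601), CLGN without oeRNF112 replicate 1 (0.0577) and SEC24A without vector replicate 1 (0.0605). Over the same 15 alternatives ERO1B kept its call in 10, SEC24A in 11, CLGN in 13 and ERO1A in 14. MAN1A1 and SEC61A2 kept theirs in all 15.

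Several of these genes share exon sequence with annotated neighbours, whose reads their counts may hold. DDIT3 shares 105 bases with AC022506.1 on its own strand and 413 with MARS and MBD6 on the other, of 1307 exonic bases. ATF6B shares 360 bases with AL662884.2 and TNXB, and DDOST 427 with PINK1-AS, on their own strands. SEC61A2 shares 387 bases with NUDT5 on the other strand, and CEBPB, ERO1A, MLEC, MAN1A1, OST4 and SEC24A also have neighbours there. PPP1R15A, ATF3, CHAC1, ERO1B and CLGN had no such overlap.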

How the data were processed

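The 6 libraries of T24 cells (3 vector, 3 oeRNF112) were used. The authors deposited raw counts of reads per gene and RPKM values. The submitters' processing notes name Trimmomatic 0.36, featureCounts from Subread 1.5.1 and GRCh38. The aligner, the annotation release and the strand setting of the counting are not given in the sources used here. The deposited RPKM values followed from the counts, the column totals and 1 length per gene for 23152 of 23152 genes (relative tolerance 0.001).

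Counts were tested in R 4.3.3 with edgeR 4.0.16 (filterByExpr, TMM factors between 0.957 and 1.05, quasi-likelihood test, Benjamini-Hochberg over all 14467 genes, threshold 0.05). Intervals are the fold change ± the t quantile times the standard error. Alternatives used DESeq2 1.42.0 and limma 3.58.1 on log2(RPKM + 1) or log2(RPKM + 0.1). A loess trend with length (span 0.3) was removed in an alternative chosen after seeing the data. Scripts were tested on simulated data. No pair of libraries agreed within sampling noise. Same-numbered samples did not deviate together. Positions and promoters are from RefSeq (GRCh38.p14), exon overlaps from GENCODE 29. The genes, lists and tests were chosen with earlier results of these data known. Named genes were all 36, plus the 15 called genes of the wider list with the smallest p, ATF4, EIF2AK3, SSR4 and RNF112.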

Additional observations from a re-analysis of the deposited data

How the results depend on the processing

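Over 15 alternatives, ERN1 kept its call in 15, SSR3 in 14, DNAJB9 in 10 and SSR2 in 7. HSPA5 was called in 3. Where a value changed between settings, the cause was not tested. Of the 31 genes not called, EDEM2 alone had an interval reaching beyond 1.5-fold.

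The number of the 35 genes that rose (3) was 6 with the length trend removed and 2 to 4 without 1 replicate. The number that fell (1) was 0 with library totals and with both limma fits, 2 with the length trend removed and 0 to 1 without 1 replicate. The median of -0.05 became 0.0467 with library totals and 0.0438 and 0.0447 with limma on log2(RPKM + 1) and log2(RPKM + 0.1). In the wider list, the 12 that rose became 20 with library totals and 20 with the length trend removed. The 5 that fell became 3 with library totals, 1 and 1 with limma and 16 with the length trend removed. They were 0 to 11 without 1 replicate, 11 without vector replicate 2 and 0 without vector replicate 1 or oeRNF112 replicate 1. The wider median became 0.0844 with library totals and 0.0766 and 0.0856 with limma.

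Over all genes, 2020 rose and 659 fell with library totals, 1656 and 1478 with DESeq2, 1337 and 424 or 1341 and 430 with limma, and 702 to 1841 and 359 to 1546 without 1 replicate.

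Same-numbered samples correlated at -0.116, -0.363 and -0.296 in their deviations from the group means, so the numbers were not taken as pairs. With the replicate number as a block, 618 genes rose and 258 fell, 1 of the 35 genes rose (ERN1) and 0 fell, and 7 genes of the wider list rose and 0 fell.

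Some values near 0 changed sign. With library totals, limma on log2(RPKM + 1) and limma on log2(RPKM + 0.1), in that order, HSP90B1 was at 0.0338, 0.0332 and 0.0332, CALR at 0.0316, 0.0337 and 0.0338, CANX at 0.0365, 0.0407 and 0.0410, DNAJC3 at 0.0355, 0.0365 and 0.0413, and MANF at 0.0467, 0.0494 and 0.0498. In the same order HYOU1 was at 0.0554, 0.0470 and 0.0481, PDIA3 at 0.00388, 0.00438 and 0.00442, PDIA4 at 0.0339, 0.0329 and 0.0332, P4HB at 0.0532, 0.0529 and 0.0531, SEL1L at 0.0776, 0.0840 and 0.0914, and SEC61A1 at 0.0316, 0.0313 and 0.0316. With the length trend removed, CALR was at 0.00697, MANF at 0.0725, ATF6 at -0.00227 and OSTC at 0.00797. Without 1 replicate, CALR ranged from -0.13 to 0.00903, DNAJB11 from -0.0432 to 0.0917, DNAJC3 from -0.16 to 0.00573, SDF2L1 from -0.14 to 0.17, MANF from -0.15 to 0.0416, HYOU1 from -0.12 to 0.0519, P4HB from -0.0968 to 0.0188, SEL1L from -0.17 to 0.14, EDEM2 from -0.0747 to 0.18, EDEM3 from -0.0551 to 0.33, ATF6 from -0.0270 to 0.15 and OSTC from -0.22 to 0.00205.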
